A study of Mus musculus with 50 samples.

Results

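The tachykinin system was followed here through 5 genes, the peptide precursors *Tac1* and *Tac2* and the receptors *Tacr1*, *Tacr2* and *Tacr3*, which were taken by symbol from the 24552 genes listed in both count tables of the study. Tachykinins are short neuropeptides cut from larger precursors. *Tac1* encodes the precursor of substance P and neurokinin A, and *Tac2* that of neurokinin B. *Tacr1*, *Tacr2* and *Tacr3* encode the NK1, NK2 and NK3 receptors, which couple mainly to Gq and prefer substance P, neurokinin A and neurokinin B, respectively. In the striatum, substance P is known as a peptide of medium spiny neurons (MSNs) with D1 dopamine receptors, and NK1 as a receptor of cholinergic and somatostatin interneurons.

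The RNA came from the nucleus accumbens (NAc) of RiboTag (RT) mice, in which cells with Cre recombinase carry an HA tag on their ribosomes. An HA antibody pulls down ribosome-bound mRNA of the tagged cells (IP), and the input is RNA of the same kind of homogenate before the pull-down. The mice were C57BL/6, aged 8 to 12 weeks, with the genotype RT; D1-Cre (D1 line) or RT; D2-Cre (D2 line), and were control mice without defeat (Con) or mice sorted as resilient (Res) or susceptible (Sus) in a social interaction test after up to 10 days of chronic social defeat. There were 4 D1 Con, 4 D1 Res and 5 D1 Sus IPs, 5 D2 IPs of each stress group, and 3 inputs of each stress group and line. A further 4 D1 IPs labelled Sirt1-KO came from undefeated male mice of the genotype RT; Sirt1-floxed; D1-Cre, with no age in the labels, and were set against the 4 D1 Con IPs. Cre was driven by bacterial artificial chromosomes carrying the D1 or D2 receptor gene, so any cell that uses these drivers was tagged, and each library pooled 2 mice.

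The 46 IPs and inputs held 18384265 to 31009626 gene counts each, and the 4 libraries labelled Sirt1-KO held 22174187 to 31785984. The labels fit the markers of the lines in part. Of 6 D1-MSN markers 5 were called higher in D1 than in D2 IPs (over 1.5-fold with an adjusted p under 0.05 by edgeR). Their log2 fold changes ran from 0.30 to 2.35. All 6 D2-MSN markers were called lower. The summed D2-MSN markers were nevertheless 2113 to 3541 CPM (counts scaled to library size) in D1 IPs, above the 819 to 1378 CPM of the D1 line inputs. By marker, 3 of 6 were called higher in D1 IPs than in these inputs. The log2 fold changes ran from 0.29 to 1.43, with a median of 0.66. Of 7 cholinergic interneuron markers 5 were lower in D1 than in D2 IPs, and all 5 cortical excitatory neuron markers were higher. The paper reports sequencing in several sets of randomly chosen samples, and it does not describe the libraries labelled Sirt1-KO. Since the labels do not give the set of a library, no term for it could be fitted.

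All 5 genes lie on the plus strand of the mouse genome GRCm38 (mm10), are annotated by GENCODE vM21 as protein coding and overlap no other annotated gene. *Tac1* spans chr6:7554879-7565834, *Tac2* chr10:127724478-127731768, *Tacr1* chr6:82402334-82560104, *Tacr2* chr10:62252438-62265990 and *Tacr3* chr3:134829007-134934579. The counts cover their exons. RefSeq promoter windows on GRCm38.p6 were found for 5 of 5 genes, and the 250 bases before the start are shown for the 4 members with measurable expression, 2 of which differed between the lines and 2 of which were lower in the libraries labelled Sirt1-KO. The windows are chr6:7554811-7555060 for *Tac1*, chr10:127724228-127724477 for *Tac2*, chr6:82402225-82402474 for *Tacr1* and chr3:134828757-134829006 for *Tacr3*, on the plus strand, and those of *Tac1* and *Tacr1* run into the longer GENCODE models. Capitals mark matches on either strand to the cAMP response element TGACGTCA, its half-site TGACG, the E-box CACGTG or the TATA box TATAAA.
Tac1: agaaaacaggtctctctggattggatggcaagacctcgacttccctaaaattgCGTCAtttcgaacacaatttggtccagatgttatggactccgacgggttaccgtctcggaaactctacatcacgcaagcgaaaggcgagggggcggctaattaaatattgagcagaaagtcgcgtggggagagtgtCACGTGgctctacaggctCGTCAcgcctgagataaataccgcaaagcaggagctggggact
Tac2: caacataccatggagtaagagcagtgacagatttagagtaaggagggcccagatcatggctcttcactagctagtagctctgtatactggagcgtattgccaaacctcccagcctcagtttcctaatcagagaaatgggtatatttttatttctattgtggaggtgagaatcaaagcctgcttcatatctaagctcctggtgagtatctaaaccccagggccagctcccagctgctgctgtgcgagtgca
Tacr1: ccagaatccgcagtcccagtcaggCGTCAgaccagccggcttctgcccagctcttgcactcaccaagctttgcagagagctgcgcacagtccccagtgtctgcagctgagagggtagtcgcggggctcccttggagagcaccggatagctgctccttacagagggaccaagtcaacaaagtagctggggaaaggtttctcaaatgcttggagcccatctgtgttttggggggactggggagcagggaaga
Tacr3: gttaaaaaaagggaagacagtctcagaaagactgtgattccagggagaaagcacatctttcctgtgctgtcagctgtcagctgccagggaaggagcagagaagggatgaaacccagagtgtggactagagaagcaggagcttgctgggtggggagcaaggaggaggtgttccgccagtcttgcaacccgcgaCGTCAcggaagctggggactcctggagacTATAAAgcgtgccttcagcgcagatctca
The half-site TGACG occurred on the minus strand 197 and 43 bases before the start of *Tac1*, 226 bases before that of *Tacr1* and 58 bases before that of *Tacr3* (positions of the first matched base). *Tac1* also held CACGTG at 61 bases and *Tacr3* TATAAA at 29 bases before the start. The full element TGACGTCA was in none of the windows, and those of *Tac2* and *Tacr2* held none of the motifs. Among 32851 promoter windows of the same length, TGACG was in 17.8%, CACGTG in 6.02%, TATAAA in 12.4% and TGACGTCA in 1.55%. These are matches of letters and not measured binding.

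*Tac1* was by far the most abundant member. Per kilobase of exon, its mean level was 96.9 CPM in IPs of the D1 line and 55.6 CPM in those of the D2 line, against 4.09 and 5.46 CPM for *Tac2*, 1.61 and 5.39 CPM for *Tacr1*, 1.76 and 2.11 CPM for *Tacr3* and 0.00939 and 0.00700 CPM for *Tacr2*. In inputs of the D1 and D2 lines the values per kilobase were 42.9 and 40.9 CPM for *Tac1*, 4.84 and 5.64 CPM for *Tac2*, 3.67 and 3.42 CPM for *Tacr1* and 2.34 and 2.48 CPM for *Tacr3*. The ligand genes therefore lay above the receptor genes in D1 IPs and in inputs, and *Tac2* and *Tacr1* were at similar levels per kilobase in D2 IPs. Of the 5 members, 4 passed the filter on low counts in every model, and *Tacr2* in none. The levels below are CPM without division by length and are compared only between libraries for the same gene.

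**Figure D1:**
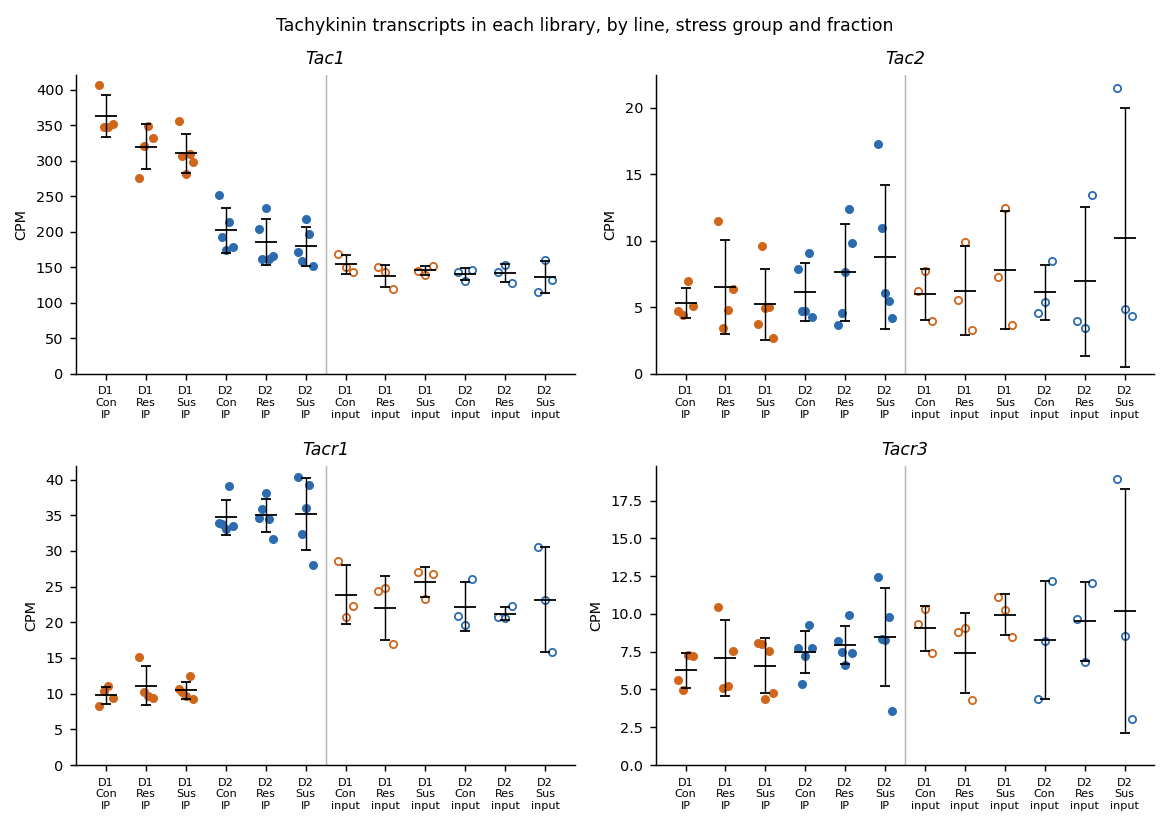
Level in CPM (linear axes from 0) of 4 tachykinin genes in each of 46 libraries, by line, stress group and fraction. Points are libraries (filled for IPs, open for inputs, orange for the D1 line, blue for the D2 line), and bars are group means ± SD. *Tac1* in D1 IPs (276 to 407 CPM) lay above all D2 IPs (152 to 251 CPM), and *Tacr1* in D1 IPs (8.24 to 15.2 CPM) lay below all D2 IPs (28 to 40.3 CPM).

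The first comparison asked which members differ between ribosome-bound mRNA of the D1 and D2 lines. *Tac1* was higher in D1 IPs and *Tacr1* was higher in D2 IPs, in every stress group. *Tac1* ranged from 276 to 407 CPM in the 13 D1 IPs (median 332) and from 152 to 251 CPM in the 15 D2 IPs (median 178). Every D1 IP lay above every D2 IP. The mean was 329 ± 35.8 CPM (SD, n = 13) against 189 ± 29.9 CPM (SD, n = 15), a log2 fold change of 0.79 ± 0.064 (SE) with an adjusted p of 6.16e-11 by edgeR's quasi-likelihood test. *Tac1* is among the genes that the study itself used as D1 markers, so its direction here is a check of the IPs and not an independent result. The summed cortical excitatory neuron markers moved the same way, from 400 to 1422 CPM in IPs of the D1 line against 21.8 to 317 CPM in those of the D2 line, and their part in the *Tac1* difference was not tested.

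*Tacr1*, the NK1 receptor of substance P, showed the opposite pattern, so that the precursor was higher in IPs of one line and its preferred receptor in IPs of the other. It ranged from 8.24 to 15.2 CPM in D1 IPs (median 10.3) and from 28 to 40.3 CPM in D2 IPs (median 34.5). No D1 IP reached the lowest D2 IP. Its D1 mean of 10.5 ± 1.74 CPM (SD, n = 13) compared with a D2 mean of 35.0 ± 3.28 CPM (SD, n = 15), which gave a log2 fold change of -1.76 ± 0.069 (SE) with an adjusted p of 4.26e-18 by edgeR. The 7 cholinergic interneuron markers, all of which were detected, summed to between 10.2 and 39.5 CPM in the D1 line and between 74.7 and 160 CPM in the D2 line, with a median log2 fold change of -3.28, and their part in the *Tacr1* difference was not tested. In bulk libraries, fewer cells of a type and less RNA per cell cannot be told apart.

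Of the 4 members tested, 2 were called (fold change over 1.5 and adjusted p under 0.05), where 7.66% of all 14224 genes tested were called, 4.94% higher and 2.71% lower in D1 IPs. The groups did not overlap for the same 2 members and for 2.82% of all genes. The median log2 fold change of all genes was -0.016. Within the stress groups the log2 fold change of *Tac1* was 0.83 in Con, 0.77 in Res and 0.77 in Sus, and that of *Tacr1* was -1.84, -1.67 and -1.76, with both called in each group by edgeR, beside 4.98%, 5.52% and 5.55% of all genes.

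The neurokinin B genes did not pass the test between the lines. *Tac2* ranged from 2.72 to 11.5 CPM in D1 IPs (median 4.95) and from 3.70 to 17.3 CPM in D2 IPs (median 6.07). Its log2 fold change was -0.42 ± 0.23 (SE), with an adjusted p of 0.148 by edgeR. *Tacr3* ranged from 4.4 to 10.5 CPM in D1 IPs and from 3.56 to 12.5 CPM in D2 IPs, with a log2 fold change of -0.28 ± 0.14 (SE) and an adjusted p of 0.117 by edgeR. Most libraries of both lines overlapped for both genes. In Sus alone *Tac2* reached -0.77 ± 0.38 (SE), with an unadjusted p of 0.0493 and an adjusted p of 0.166 by edgeR. Without D1 Sus IP 2 it was -1.12, with an adjusted p of 0.0490 by edgeR. With each of the 10 libraries left out in turn, it ran from -1.12 to -0.36 and was called in 1 fit.

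*Tac2* varied more among libraries than the other measurable members, with a coefficient of variation of 56.5% over the 46 libraries, and a few libraries carried its high values. In the Res group of the D1 line its level was 11.5, 3.43, 4.77 and 6.34 CPM in IPs 1 to 4. In the Sus group of the D2 line it was 17.3, 11, 6.07, 5.48 and 4.16 CPM in IPs 1 to 5 and 21.5, 4.87 and 4.35 CPM in inputs 1 to 3. D1 Res IP 1, D2 Sus IP 1 and D2 Sus input 1 also held the highest cholinergic marker sums of the D1 IPs, the D2 IPs and all inputs, 39.5, 160 and 152 CPM. Other cell types also stood apart in them. *Th*, the marker of tyrosine hydroxylase interneurons, was at its highest of each kind in the same libraries (12.3, 21.7 and 10.4 CPM), and the cortical marker sum was the lowest of the D2 IPs in D2 Sus IP 1 (21.8 CPM) and of all inputs in D2 Sus input 1 (73.7 CPM). The part of these cells in the member values was not tested. *Tacr1* and *Tacr3* were at their highest in the same libraries of each of these kinds, with 15.2 and 10.5 CPM in D1 Res IP 1, 40.3 and 12.5 CPM in D2 Sus IP 1 and 30.6 and 19.0 CPM in D2 Sus input 1. Without D1 Res IP 1 and D2 Sus IP 1, the log2 fold change between the lines was 0.81 for *Tac1*, -1.80 for *Tacr1*, -0.42 for *Tac2* and -0.30 for *Tacr3*, and the same 2 members were called.

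The second comparison asked whether the transcripts are richer in the tagged cells than in the whole tissue. In the D1 line *Tac1* was enriched in IPs and *Tacr1* was depleted, whereas in the D2 line *Tacr1* was enriched. *Tac1* ranged from 120 to 169 CPM in the 9 D1 line inputs (median 145), below every D1 IP. Its mean there was 146 ± 13 CPM (SD, n = 9), and its log2 fold change from input to IP was 1.18 ± 0.074 (SE), with an adjusted p of 4.04e-18 by edgeR. *Tacr1* ranged from 16.9 to 28.6 CPM in the D1 line inputs (median 24.4), above every D1 IP. Its mean there was 23.9 ± 3.58 CPM (SD, n = 9), with a log2 fold change of -1.19 ± 0.0915 (SE) and an adjusted p of 2.46e-15 by edgeR. These 2 of 4 members were called beside 43.1% of all 15404 genes, and groups did not overlap for 48.3% of all genes, so that a call of this kind was common in the table. *Tac2*, with a log2 fold change of -0.23 ± 0.31 (SE), and *Tacr3*, with -0.40 ± 0.21 (SE) and an adjusted p of 0.0746 by edgeR, were not called.

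In the D2 line *Tacr1* ranged from 15.9 to 30.6 CPM in the 9 inputs (median 20.9), and 14 of 15 D2 IPs lay above all of them. Its log2 fold change was 0.66 ± 0.088 (SE), with an adjusted p of 8.44e-09 by edgeR, and it was the only member called, beside 43.6% of all genes. When only genes averaging 50 counts or more were fitted, its fold change was 0.56, under the limit of 1.5-fold. *Tac1* ranged from 115 to 160 CPM in D2 line inputs, and 13 of 15 D2 IPs lay above all of them. It was higher in IPs by a log2 fold change of 0.44 ± 0.071 (SE), with an adjusted p of 4.55e-07 by edgeR, but under 1.5-fold. Of the 6 D1-MSN markers 3 were called lower in D2 IPs than in inputs and none was called higher. Their log2 fold changes ran from -0.70 to 0.16, with a median of -0.48. The log2 fold change of *Tac2* was -0.02 ± 0.29 (SE) and that of *Tacr3* was -0.22 ± 0.20 (SE). Of the 7 cholinergic markers 6 were called lower in D1 IPs than in inputs, with a median log2 fold change of -2.70. In D2 IPs 3 were called higher and 1 lower, with a median of 0.56. Of 4 markers of somatostatin, NPY and nitric oxide synthase interneurons, 3 were called lower in D1 IPs and 4 in D2 IPs than in inputs. Log2 fold changes ran from -1.96 to -0.48 in the D1 line and from -1.28 to -0.71 in the D2 line. The part of these cells in the *Tacr1* values was not tested.

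The change from input to IP was also compared between the lines, a test added after the values were seen. It differed for *Tac1*, by 0.74 ± 0.10 (SE) on the log2 scale with an adjusted p of 4.21e-07 by edgeR, and for *Tacr1*, by -1.85 ± 0.13 (SE) with an adjusted p of 1.56e-14, while 25.5% of all genes passed an adjusted p under 0.05. The IPs are those of the first comparison, so this is not a second measurement.

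All 5 astrocyte, 4 oligodendrocyte, 5 microglia and 4 endothelial markers were lower in IPs than in inputs of both lines.

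No member was called between the inputs of the 2 lines. Their log2 fold changes, D1 line over D2 line, were 0.07 ± 0.061 (SE) for *Tac1*, -0.20 ± 0.36 for *Tac2*, 0.10 ± 0.11 for *Tacr1* and -0.09 ± 0.26 for *Tacr3*, and edgeR called 0.0266% of 15063 genes. In the order of the 12 group means, *Tac1* descended from D1 Con (363 CPM), D1 Res (320) and D1 Sus IPs (310) to D2 Con (202), D2 Res (186) and D2 Sus IPs (179) and then to the inputs (136 to 154 CPM). Ranges of neighbours overlapped in 10 of 11 steps, all but the step from D1 Sus to D2 Con IPs. *Tacr1* descended from the D2 IPs (34.7 to 35.2 CPM) over the inputs (21.2 to 25.7) to the D1 IPs (9.77 to 11.1), with overlap in 9 of 11 steps. For *Tac2*, *Tacr3* and *Tacr2* every pair of neighbours overlapped.

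**Figure D2:**
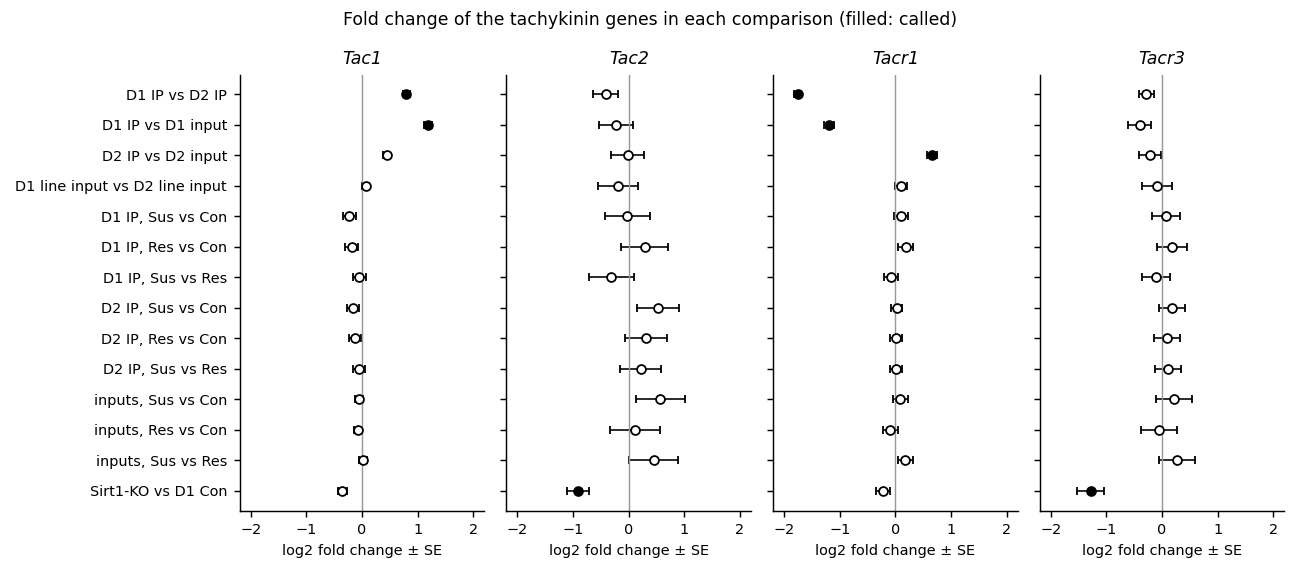
Log2 fold change ± SE of 4 tachykinin genes (horizontal axis) in 14 comparisons (rows), as fitted by edgeR. Filled points passed the rule for a call in their comparison. *Tac1* and *Tacr1* were called with opposite signs between the lines (0.79 and -1.76), no member was called in a stress comparison, and *Tac2* and *Tacr3* were called lower in the libraries labelled Sirt1-KO (-0.91 and -1.28).

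The third comparison asked whether defeat stress or its outcome changed the members within a line. No member passed an unadjusted p under 0.05, the rule used here for stress, in any comparison of Con, Res and Sus within D1 IPs, D2 IPs or inputs by edgeR. *Tac1* came closest, in D1 IPs. It was 407, 347, 348 and 351 CPM in Con 1 to 4, 276, 321, 350 and 332 CPM in Res 1 to 4 and 356, 306, 281, 309 and 299 CPM in Sus 1 to 5. In Sus 4 of 5 and in Res 3 of 4 libraries lay below all Con libraries, and Con 1 stood above the rest. Of the 13 D1 IPs, Con 1 also held the highest sums of D1-MSN, D2-MSN and general MSN markers (1231, 3541 and 6113 CPM). Its cortical excitatory marker sum was the lowest of them (400 CPM). The log2 fold change from Con to Sus was -0.23 ± 0.11 (SE), with an unadjusted p of 0.0506 and an adjusted p of 0.846 by edgeR, and from Con to Res -0.18 ± 0.12 (SE), with an unadjusted p of 0.134 and an adjusted p of 1.00 by edgeR. In the same comparison of D1 Sus and Con IPs, 5 of 6 D2-MSN markers passed an unadjusted p under 0.05 and were lower, with a median log2 fold change of -0.23 and sums of 2113 to 2661 CPM in Sus and 2429 to 3541 CPM in Con. Of 5 markers of MSNs in general 2 passed and were lower, and 1 of 5 astrocyte markers passed and was higher. None of the 6 D1-MSN markers passed, with a median of -0.043. The part of these cells in the *Tac1* values was not tested. The comparisons of Res and of Sus share the Con libraries. At an unadjusted p under 0.05, 5.34% of all genes were called in D1 Sus against Con, 2.11% in Res against Con and 4.23% in Sus against Res. The call depended on the fit, since the unadjusted p of Sus against Con was 0.0440 without the filter on low counts, 0.0499 in DESeq2 and 0.00724 in a model of these groups only, and none of the adjusted p-values passed 0.05.

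*Tac1* was 251, 192, 175, 214 and 178 CPM in D2 Con IPs, 204, 162, 234, 162 and 166 CPM in Res and 171, 159, 219, 197 and 152 CPM in Sus. The 3 groups overlapped. The log2 fold changes against Con were -0.17 ± 0.11 (SE) in Sus and -0.12 ± 0.11 (SE) in Res. Their difference between the lines did not pass the test either, at -0.06 ± 0.16 (SE) for Sus and for Res with adjusted p-values of 1.00 by edgeR. Of all genes, 3.68% were called in D2 Sus against Con, 3.02% in Res against Con, 1.66% in Sus against Res, and 1.82% and 2.36% in the differences between lines for Sus and Res.

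*Tacr1* was 33.9, 33.8, 33.1, 39.1 and 33.6 CPM in D2 Con IPs, 34.7, 35.9, 38.2, 34.5 and 31.7 CPM in Res and 40.3, 32.4, 36.0, 39.2 and 28 CPM in Sus. In D1 IPs it was 8.24, 10.4, 11.1 and 9.42 CPM in Con, 15.2, 10.3, 9.64 and 9.39 CPM in Res and 10.7, 10.3, 9.67, 12.4 and 9.32 CPM in Sus. Groups overlapped in both lines, and the log2 fold changes between stress groups lay between -0.08 and 0.18, with standard errors of 0.11 to 0.13.

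*Tac2* was 4.74, 4.44, 6.95 and 5.12 CPM in D1 Con IPs, 3.75, 9.62, 4.95, 5.02 and 2.72 CPM in D1 Sus IPs, 7.90, 4.72, 4.72, 9.10 and 4.25 CPM in D2 Con IPs and 3.70, 4.56, 7.63, 12.4 and 9.84 CPM in D2 Res IPs. The groups overlapped in both lines. The log2 fold change from Con to Sus was -0.03 ± 0.41 (SE) in D1 IPs and 0.52 ± 0.37 (SE) in D2 IPs. *Tacr3* was 5.60, 4.98, 7.26 and 7.21 CPM in D1 Con, 10.5, 5.10, 5.22 and 7.53 CPM in D1 Res and 8.07, 8.02, 4.4, 7.53 and 4.78 CPM in D1 Sus IPs. In the D2 line it was 7.73, 5.38, 7.19, 9.28 and 7.72 CPM in Con, 8.19, 7.50, 6.61, 9.95 and 7.38 CPM in Res and 12.5, 8.33, 8.27, 9.78 and 3.56 CPM in Sus IPs. Its log2 fold change from Con to Sus was 0.06 ± 0.25 (SE) in D1 IPs and 0.19 ± 0.23 (SE) in D2 IPs, again with overlap of the groups.

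In inputs, *Tac1* was 169, 150 and 144 CPM in D1 Con, 150, 143 and 120 CPM in D1 Res, 145, 139 and 152 CPM in D1 Sus, 143, 130 and 147 CPM in D2 Con, 143, 153 and 128 CPM in D2 Res and 115, 160 and 133 CPM in D2 Sus. All groups overlapped. The log2 fold changes over both lines were -0.06 ± 0.075 (SE) for Sus against Con, -0.08 ± 0.075 for Res against Con and 0.02 ± 0.075 for Sus against Res. Those of *Tac2* were 0.56 ± 0.44, 0.11 ± 0.45 and 0.45 ± 0.44, those of *Tacr1* 0.09 ± 0.14, -0.09 ± 0.14 and 0.18 ± 0.14, and those of *Tacr3* 0.22 ± 0.32, -0.05 ± 0.32 and 0.27 ± 0.32. *Tacr1* was 28.6, 20.8 and 22.3 CPM in D1 Con inputs, 24.4, 24.8 and 16.9 CPM in D1 Res, 27.0, 23.2 and 26.7 CPM in D1 Sus, 20.9, 19.6 and 26.1 CPM in D2 Con, 20.8, 20.6 and 22.2 CPM in D2 Res and 30.6, 23.1 and 15.9 CPM in D2 Sus, with overlap of all groups. No member was called, beside 4.13%, 2.97% and 4.86% of all genes at an unadjusted p under 0.05. The high *Tac2* mean in Sus rested on D2 Sus input 1, without which Sus against Con was -0.016.

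*Tacr2*, the NK2 receptor, was at the limit of detection. It had 13 counts in all over 28 IPs, of which 18 held none and none held more than 2, and 22 counts over 18 inputs, of which 7 held none and none held more than 5. The 13 D1 IPs shared 7 counts and the 15 D2 IPs 6 counts. Permutation tests of log2 CPM over 17 comparisons gave a lowest p of 0.0337, for D2 IPs (6 counts in 15 libraries) below D2 line inputs (13 counts in 9 libraries), with an adjusted p of 0.572. Differences of *Tacr2* between groups were therefore not detectable at this depth.

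The fourth comparison set the D1 IPs labelled Sirt1-KO against the D1 Con IPs, on a CPM scale computed from these 8 libraries, which differs slightly from the scale above. *Sirt1*, a protein deacetylase gene, was 15.2, 16.2, 13.2 and 10.2 CPM in the libraries labelled Sirt1-KO and 13.1, 16.6, 14.8 and 14.4 CPM in Con 1 to 4. The groups overlapped, with a log2 fold change of -0.10 ± 0.13 (SE) and an adjusted p of 0.768 by edgeR. A count over the whole gene does not show whether exons were removed, so the label could not be checked here.

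In these libraries *Tac2* and *Tacr3*, the neurokinin B precursor and its preferred receptor, were lower. *Tac2* was 2.63, 2.10, 2.51 and 3.63 CPM in the libraries labelled Sirt1-KO, numbered 1, 3, 4 and 5, and 4.49, 4.21, 6.58 and 4.87 CPM in Con. *Tacr3* was 2.39, 1.58, 2.13 and 3.86 CPM in the libraries labelled Sirt1-KO and 5.30, 4.72, 6.87 and 6.86 CPM in Con. For both genes every library labelled Sirt1-KO lay below every Con library, and library 5 was the highest of its group.

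The log2 fold change of *Tac2* was -0.91 ± 0.20 (SE), with an adjusted p of 0.0480 by edgeR, and that of *Tacr3* was -1.28 ± 0.24 (SE), with an adjusted p of 0.0291. Of 13626 genes, 0.749% were called, 0.470% lower and 0.279% higher. Both calls lie near the threshold: with 1 of the 8 libraries left out in turn, *Tac2* stayed called in 1 and *Tacr3* in 3 of 8 fits, with adjusted p-values of 0.0101 to 0.155 and 0.00349 to 0.101, and with log2 fold changes of -1.07 to -0.75 and -1.55 to -1.11. Both calls were lost without Con 3, Con 4 or libraries 1, 3 or 4 labelled Sirt1-KO.

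*Tac1* was 295, 259, 232 and 289 CPM in the libraries labelled Sirt1-KO and 385, 329, 329 and 334 CPM in Con, again without overlap. Its log2 fold change of -0.36 ± 0.081 (SE), with an adjusted p of 0.0529 by edgeR, was not called. The groups did not overlap for 3 of 4 tested members, all lower, and for 9.55% of all genes, 5.11% lower. *Tacr1* was 7.86, 7.41, 7.05 and 9.39 CPM in the libraries labelled Sirt1-KO and 7.79, 9.81, 10.5 and 8.96 CPM in Con, which overlapped, with a log2 fold change of -0.23 ± 0.13 (SE) and an adjusted p of 0.383 by edgeR. *Tacr2* had 5, 1, 3 and 0 counts in the libraries labelled Sirt1-KO and 1 count in the 4 Con libraries together, with an exact two-sided permutation p of 0.257 where the smallest possible was 0.0286.

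Markers of other cells moved in the same libraries. The summed cholinergic markers were 5.01 to 11.5 CPM in the libraries labelled Sirt1-KO and 13.7 to 15.9 CPM in Con, with a median log2 fold change of -1.02 over the 6 markers tested, 1 of which was called lower. The summed cortical excitatory neuron markers were 852 to 1605 CPM against 379 to 1039 CPM, with a median of 0.89 and none called. The D1-MSN markers summed to 742 to 918 CPM against 949 to 1164 CPM, with a median of -0.29 (range -0.41 to 0.22) and none called. Medians were -0.31 for D2-MSN markers and -0.32 for markers of MSNs in general, with none called. Those of further lists were -0.57 (astrocyte), -0.42 (parvalbumin interneuron), -0.37 (oligodendrocyte), -0.16 (microglia and endothelial) and 0.29 (*Th*), also with none called. The 4 markers of somatostatin, NPY and nitric oxide synthase interneurons summed to 136 to 164 CPM in the libraries labelled Sirt1-KO and 99.0 to 129 CPM in Con, with a median log2 fold change of 0.43 and 1 marker called lower. Their part in the lower *Tac2*, *Tacr3* and *Tac1* was not tested. The labels do not give when the groups were collected or sequenced, so no term for either could be fitted. If the groups were collected or sequenced apart, that difference and the Sirt1-KO label cannot be told apart.

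**Figure D3:**
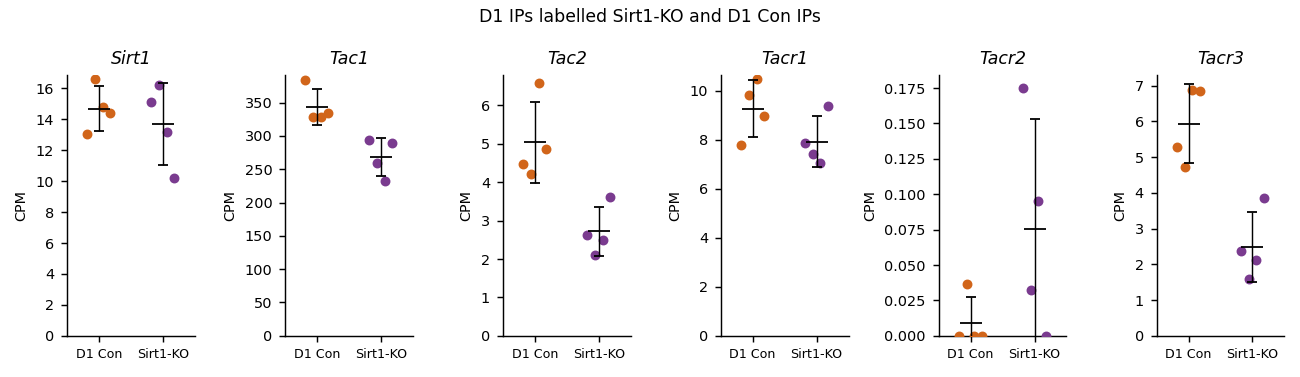
Level in CPM (linear axes from 0, one scale per gene) of Sirt1 and the 5 members in 4 D1 Con IPs and 4 D1 IPs labelled Sirt1-KO. Points are libraries and bars are means ± SD, those of Tacr2 running below the axis. Sirt1 overlaps, and Tac1, Tac2 and Tacr3 are lower in every library labelled Sirt1-KO than in every Con library.

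*Tac2* and *Tacr3* followed the cholinergic interneuron markers from library to library in IPs and inputs. *Tacr1* did so in inputs, and for *Tac1* no relation passed the test. No other marker list was set against the members. Among inputs, the cortical marker sum was lowest in D2 Sus input 1 (73.7 CPM), where the cholinergic sum was highest (152 CPM). It was highest in D1 Res input 3 (1121 CPM), where the cholinergic sum was lowest (54.3 CPM). The part of other cell types in these relations was not tested. Within the 15 D2 IPs, Pearson's r between log2 CPM and the log2 of the summed cholinergic markers was 0.88 for *Tacr3* (Spearman's rho 0.68, permutation p 7e-05 for r and 0.00617 for rho, adjusted p of r 0.00056 over 8 relations). It was 0.76 for *Tac2* (rho 0.74, permutation p 0.00062 and 0.00231, adjusted 0.00248) and 0.64 for *Tacr1* (rho 0.41, permutation p 0.0120 and 0.128, adjusted 0.0191). Without the 2 libraries farthest from the median marker sum, r was 0.75 for *Tacr3*, 0.63 for *Tac2* and 0.21 for *Tacr1*, so the relation of *Tacr1* in D2 IPs rests on these libraries.

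Within the 13 D1 IPs, r was 0.76 for *Tacr3* (rho 0.71, permutation p 0.00118 and 0.00851, adjusted 0.00315), 0.73 for *Tac2* (rho 0.51, permutation p 0.00529 and 0.0770, adjusted 0.0106) and 0.63 for *Tacr1* (rho 0.26, permutation p 0.0430 and 0.383, adjusted 0.0573). Without the 2 farthest libraries, r was 0.47, 0.69 and -0.05, so that of *Tacr1* rested on them. With stress group means subtracted, the same r for *Tac2* was 0.72 and fell to 0.21 without the 2 farthest libraries. For *Tac1*, r was -0.17 in D1 IPs and 0.05 in D2 IPs (rho 0.09 and 0.08, permutation p of r 0.578 and 0.857). The p-values measure only the spread between these libraries.

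In the 18 inputs, a set of 4 relations computed after the values in IPs were seen, r was 0.92 for *Tacr3* (rho 0.89), 0.85 for *Tac2* (rho 0.87) and 0.82 for *Tacr1* (rho 0.74), with adjusted permutation p-values of 4e-05, 6e-05 and 8e-05, and -0.01 for *Tac1* (rho -0.06, adjusted permutation p 0.954). Without the 2 farthest inputs r was 0.90, 0.87 and 0.69. Among the members themselves, over 18 relations, *Tac2* and *Tacr3* had r of 0.72 in inputs, 0.71 in D1 IPs and 0.59 in D2 IPs (rho 0.82, 0.62 and 0.58, adjusted permutation p 0.00864, 0.0248 and 0.0505), and 0.58, 0.47 and 0.36 without the 2 farthest libraries. *Tacr1* and *Tacr3* had r of 0.79, 0.64 and 0.75 in the same order (rho 0.63, 0.46 and 0.59, adjusted permutation p 0.00144, 0.0477 and 0.0125), and 0.60, 0.41 and 0.33 without them.

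**Figure D4:**
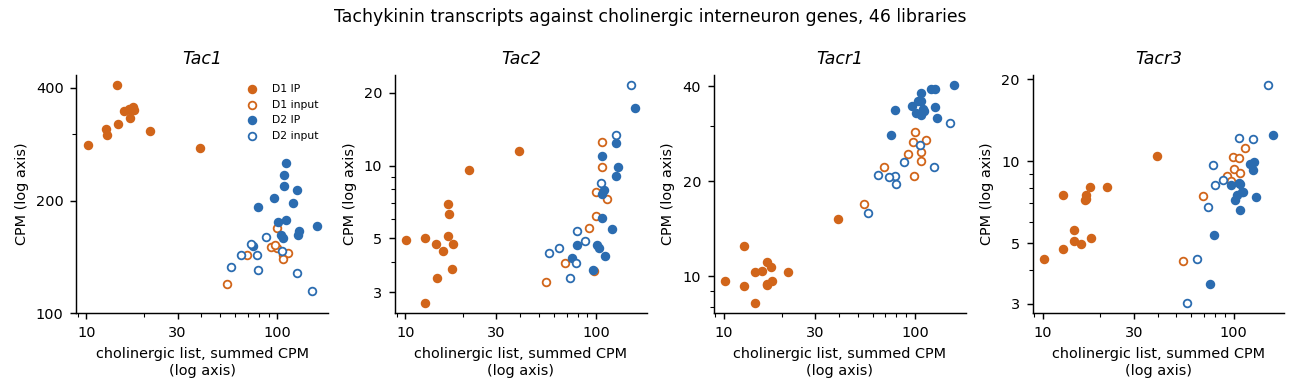
Level in CPM of 4 tachykinin genes (vertical) against the summed CPM of 7 cholinergic interneuron markers (horizontal) in 46 libraries, both on log axes. Points are libraries, filled for IPs and open for inputs, orange for the D1 line and blue for the D2 line. *Tac2*, *Tacr1* and *Tacr3* follow the marker sum within inputs (r of 0.85, 0.82 and 0.92), and *Tac1* does not (-0.01).

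Genes whose log2 CPM over the 28 IPs was most like each member, among the 13569 genes averaging 10 counts or more, are given as a description. These were *Drd1*, the D1 dopamine receptor (r 0.97), *Asic4* (0.96) and *Chst2* (0.96) for *Tac1*, and *Slc5a7*, the choline transporter (0.99), *Ttc12* (0.98) and *Chat*, choline acetyltransferase (0.98) for *Tacr1*, over libraries that fall into 2 lines. With group means subtracted, *Tsc22d1* (0.85), *Drd1* (0.83) and *Slc25a5* (0.82) were closest to *Tac1*, and *Slc5a7* (0.76), *Col25a1* (0.74) and *Aatk* (0.74) to *Tacr1*. For *Tac2* they were *Ngfr*, a neurotrophin receptor (0.80), *Ache*, acetylcholinesterase (0.76) and *Fhl1* (0.74), and *Nr2f2* (0.83), *Gal*, the galanin precursor (0.82) and *Th*, tyrosine hydroxylase (0.82) with group means subtracted. For *Tacr3* they were *Ache* (0.84), *Dgkk* (0.82) and *Tcf7l2* (0.81), and *Baiap3* (0.85), *Ache* (0.85) and *Fgfr1* (0.84) with group means subtracted.

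Of 15 genes that cut, amidate or degrade neuropeptides, 14 were tested between D1 and D2 IPs and none was called, with a median log2 fold change of 0.04 beside -0.016 for all genes. Against input, 3 were called higher and 2 lower in D1 IPs and 3 higher and 3 lower in D2 IPs, beside the 43.1% and 43.6% of all genes. *Pcsk2*, a convertase that cuts peptide precursors, averaged 572 CPM in D1 IPs against 284 CPM in the inputs of that line (log2 fold change 1.01 ± 0.057, SE), and 661 and 278 CPM in the D2 line (1.25 ± 0.056). *Dpp4*, a dipeptidyl peptidase that can shorten substance P, was lower in IPs, with log2 fold changes of -2.50 in the D1 line and -2.46 in the D2 line at low IP means of 0.131 and 0.118 CPM. So was *Ece2*, an endothelin-converting enzyme, with -1.34 and -1.02 at low IP means of 0.361 and 0.408 CPM.

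*Mme*, which encodes neprilysin, an enzyme that degrades substance P, was the only one of 14 tested genes of this list called in the libraries labelled Sirt1-KO. Its mean was 19.1 ± 3.91 CPM (SD, n = 4) there and 32.5 ± 2.27 CPM (SD, n = 4) in Con, with a log2 fold change of -0.78 ± 0.12 (SE) and an adjusted p of 0.0159 by edgeR, beside the 0.749% of all genes called. The call was lost without Con 3, Con 4 or library 3 labelled Sirt1-KO. In stress comparisons of D1 IPs, *Pcsk1*, another convertase, had a mean of 17.5 CPM in Sus, 12.4 CPM in Con and 12.6 CPM in Res (log2 fold changes 0.50 and 0.47, unadjusted p 0.00235 and 0.00397), *Pcsk1n*, a convertase inhibitor, was -0.25 in Sus against Res, and *Nrd1*, a peptidase that cuts at dibasic sites, was 0.10 in both, with adjusted p-values of 0.846 to 0.999 by edgeR. The change of *Pcsk1* from Con to Sus differed between the lines by 0.42 and that of *Pcsk1n* from Con to Res by 0.18, again only at an unadjusted p under 0.05 (0.0496 and 0.0443, adjusted p 1.00 by edgeR). None of the list was called among stress groups of D2 IPs or inputs. *Tac4*, the remaining tachykinin precursor gene, did not pass the filter on low counts in any model.

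A list of 18 genes covered Gq signalling and receptor desensitization. Over the 3 stress groups none was called lower in D1 than in D2 IPs, beside 2.71% of all genes. *Prkca*, protein kinase C alpha, was higher, averaging 325 CPM in D1 and 196 CPM in D2 IPs (log2 fold change 0.71 ± 0.057, SE). Within Con, *Itpr2*, an inositol trisphosphate receptor gene, was also called, lower in D1 IPs (-0.69 ± 0.19, SE). In the D1 line 3 of 18 were called higher and 3 lower in IPs than in inputs. In the D2 line 3 were called higher and 4 lower. Of all genes 43.1% and 43.6% were called, in the same order. The phospholipase gene *Plcb3* had the lowest log2 fold changes of the list, -2.78 in the D1 line and -2.39 in the D2 line, followed by the inositol trisphosphate receptor genes *Itpr3*, with -2.31 and -1.87, and *Itpr2*, with -1.95 and -1.58. None of the list was called in the libraries labelled Sirt1-KO. At an unadjusted p under 0.05, *Itpr2* was higher in D1 Sus against Con (0.45), *Plcb2* in D2 Sus against Con (0.27) and *Plcb3* in D2 Res against Con (0.49), and in inputs *Plcb2* was 0.31 in Res against Con and -0.33 in Sus against Res, all with adjusted p-values of 0.846 to 1.00 by edgeR.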

How the data were processed

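RNA was measured in 50 NAc libraries of pooled mice: 28 IPs, 18 inputs and 4 D1 IPs labelled Sirt1-KO. Stranded libraries of poly-A RNA were sequenced by the authors, who used cutadapt for trimming, STAR for alignment to mm10 and HTSeq for counting, and the deposited values are raw counts per gene symbol. HTSeq is not among the tools the notes name for the libraries labelled Sirt1-KO, and versions are not given in the sources used here. Entries that name no gene (18.0% to 28.3% of reads in IPs, 35.9% to 40.0% in inputs, 19.2% to 23.8% in the libraries labelled Sirt1-KO) were left out, as were 2 columns with no sample. Of 5 symbols listed 2 times in the table with the Sirt1-KO libraries, the first entry was kept. The 4 D1 Con libraries are identical in both tables, and none of 82 pairs of replicates was a duplicate (chi-square per gene 3.60 to 104).

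CPM and tests used TMM factors and edgeR 4.0.16 (quasi-likelihood, R 4.3.3) after filterByExpr (minimum count 10, minimum total 15), with a mean per group: 28 IPs for the lines and stress, 46 libraries for IP against input, 18 inputs, and 8 libraries for Sirt1-KO. P-values were adjusted over all genes by Benjamini-Hochberg. Genes were called at more than 1.5-fold with adjusted p under 0.05, or for stress an unadjusted p under 0.05. P-values measure the spread between libraries of pooled mice. *Tacr2*, below the filter, was compared by two-sided permutation tests of log2 CPM (prior count 2; exact, or 100000 resamples with 10 or more libraries in a group), as were correlations (SciPy 1.17.1). Among sets of groups with 3 or more same-numbered pairs, the numbers paired D2 Res with D2 Con IPs (5 of 5 correlations of deviations over 0.1) and D1 Sus inputs with IPs (3 of 3). Scripts were tested on simulated counts. The members and lists were chosen with earlier results of these data known. Named genes were the 5 members, *Sirt1*, list genes called between D1 and D2 IPs (up to 3 by size of change in other comparisons) and the 3 genes most like each member.

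Alternatives were RLE factors, no filter, genes averaging 50 counts or more, DESeq2 1.42.0, the replicate number as a block, models of only the libraries compared, control libraries only, adjusted p for stress, a prior count of 0.5, group means subtracted, and each library left out. Leaving out 2 or 3 high libraries together, the relations in inputs and the test of IP against input between lines were added after seeing the data. Promoters are from RefSeq. A result for a gene of the signalling list is not reported here.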

Additional observations from a re-analysis of the deposited data

Results flagged for a closer look

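The change from input to IP differed between the lines for *Tac1* and *Tacr1*. The log2 fold change of *Tac1* was 1.18 in the D1 line and 0.44 in the D2 line, a difference of 0.74 ± 0.10 (SE) with an adjusted p of 4.21e-07 by edgeR. That of *Tacr1* was -1.19 and 0.66, a difference of -1.85 ± 0.13 (SE) with an adjusted p of 1.56e-14. Of 15404 genes, 25.5% passed an adjusted p under 0.05 in this test, which was added after the values were seen and uses the same IPs as the comparison of the lines. The differences of *Tac2* (-0.21, adjusted p 0.771) and *Tacr3* (-0.18, adjusted p 0.707) did not pass. With RLE size factors the differences were 0.72 for *Tac1* and -1.87 for *Tacr1*.

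A single library stood apart from the others of its group in 6 of 35 groups of 4 or 5 libraries examined over the 5 members, by Dixon's test. Chance flags about 1 in 20 groups, and 3 of the 6 are *Tacr2* groups in which the test passes by construction, since a single library held a count. D1 Con IP 1 was high in *Tac1* (407 CPM, 11403 counts), D1 Res IP 1 in *Tacr1* (15.2 CPM, 342 counts) and D2 Con IP 4 in *Tacr1* (39.1 CPM, 1071 counts). The *Tacr2* libraries, each with 1 count where the rest of the group had none, were D1 Con IP 2 (0.0386 CPM), D2 Res IP 4 (0.0343 CPM) and D2 Sus IP 1 (0.0333 CPM).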

How the results depend on the processing

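The calls of *Tac1* and *Tacr1* between D1 and D2 IPs and between D1 IPs and inputs kept their direction and passed under all alternatives run, each left-out library included (*Tac1* 0.78 to 0.82 and *Tacr1* -1.82 to -1.73 between the lines over left-out libraries). *Tacr1* in D2 IPs against inputs fell to 0.56, with 0 members called, at a mean of at least 50 counts. The number of members called in D1 Sus vs Con rose from 0 to 1 (*Tac1*) without the filter (-0.23), in DESeq2 (-0.23) and in a model of these groups only (-0.22), where that of D1 Res vs Con also rose to 1 (-0.19). None passed at an adjusted p. In the libraries labelled Sirt1-KO 1 member was called at a mean of at least 50 counts (*Tac2* adjusted p 0.0518), and in D1 IPs vs inputs 3 processing genes were called with that filter. *Tac2* in D2 IPs vs inputs changed sign to 0.018 without the filter, 0.023 with the replicate block, 0.019 in control libraries and 0.23 without the 3 high libraries. With group means subtracted the cholinergic r of *Tacr1* in D1 IPs was 0.65 (adjusted permutation p 0.0249). The cause of these changes was not tested.

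In most sets of groups not every same-numbered pair correlated over 0.1 and best with its own number. Whether such libraries were paired was not settled there. Deviations correlated over 0.1 in 9 of 18 pairs of input and IP, 9 of 13 of the lines, 18 of 27 of stress groups, 2 of 9 of inputs and 1 of 3 of Sirt1-KO and Con. In the same order, 6, 7, 15, 2 and 0 pairs correlated best with their own number. The counts that chance would give were not computed. Every pair was over 0.1 and best with its own number for D2 Res and D2 Con IPs (5 of 5) and for D1 Sus inputs and IPs (3 of 3), and the block changed no member's call in D2 Res vs Con. With the replicate block the log2 fold changes were 0.77 for *Tac1* and -1.78 for *Tacr1* between the lines and -1.13 for *Tac2* and -1.64 for *Tacr3* in the libraries labelled Sirt1-KO, where 2 processing genes and 1 signalling gene were called, and *Tac2* in D1 Sus vs Con was 0.046. The block changed no other call of a member.

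With 1 library left out, members called ranged from 0 to 1 in D1 Sus vs Con, D2 Sus vs Con, D2 Res vs Con (all *Tac1*, without D1 Sus IP 1, D2 Sus IP 3 and D2 Res IP 3) and inputs Sus vs Res (*Tacr1*, without D2 Sus input 3), from 2 to 3 in D1 vs D2 IPs of Sus (*Tac2*, without D1 Sus IP 2), and 0 to 2 in Sirt1-KO vs Con, with 0 to 2 processing genes. No called value changed sign. Log2 fold changes of uncalled members that changed sign ranged as follows. In D1 IP Sus vs Con *Tac2* ran from -0.37 to 0.13, *Tacr3* from -0.026 to 0.18. In D1 IP Res vs Con *Tac2* ran from -0.13 to 0.49, *Tacr1* from -0.00024 to 0.26, *Tacr3* from -0.070 to 0.30. In D1 minus D2 Sus vs Con *Tac1* ran from -0.15 to 0.019, *Tacr3* from -0.31 to 0.062. In D1 minus D2 Res vs Con *Tac1* ran from -0.15 to 0.036, *Tac2* from -0.43 to 0.23, *Tacr1* from -0.011 to 0.25, *Tacr3* from -0.15 to 0.22. In D1 IP vs D2 IP Res *Tac2* ran from -0.66 to 0.0082. In D1 IP Sus vs Res *Tac2* ran from -0.66 to 0.10, *Tacr1* from -0.15 to 0.10, *Tacr3* from -0.24 to 0.14. In D2 IP Sus vs Con *Tacr1* ran from -0.034 to 0.094. In D2 IP Res vs Con *Tacr1* ran from -0.022 to 0.058, *Tacr3* from -0.016 to 0.18. In D2 IP Sus vs Res *Tac1* ran from -0.12 to 0.049, *Tac2* from -0.20 to 0.47, *Tacr1* from -0.044 to 0.083, *Tacr3* from -0.083 to 0.29. In D2 IP vs D2 input *Tac2* ran from -0.14 to 0.41, *Tacr3* from -0.32 to 0.10. In D1 line input vs D2 line input *Tac2* ran from -0.37 to 0.19, *Tacr3* from -0.24 to 0.19. In inputs Sus vs Con *Tac2* ran from -0.016 to 0.75, *Tacr1* from -0.041 to 0.20, *Tacr3* from -0.20 to 0.44. In inputs Res vs Con *Tac2* ran from -0.34 to 0.28, *Tacr3* from -0.20 to 0.15. In inputs Sus vs Res *Tac1* ran from -0.049 to 0.070, *Tac2* from -0.13 to 0.90, *Tacr3* from -0.14 to 0.49. Depth, with at most 5 counts a library, limits *Tacr2*.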
